A study of Homo sapiens with 6 samples.

Results

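The metallothioneins and the genes around them in the cell's response to metals were followed in MDA-MB-231-DR cells, a subline of MDA-MB-231 made resistant to doxorubicin. MDA-MB-231 is a triple-negative line, lacking oestrogen and progesterone receptors and HER2 amplification. The 8 genes were MT1E, MT1F, MT1G, MT1M, MT1X, MT2A, MTF1 and SLC30A1, and they were taken by gene name from the 58302 genes of the table. RNA was sequenced from 3 control samples of the resistant line and 3 samples of the same line treated with CYT (cyperotundone, a sesquiterpenoid of the nutgrass Cyperus rotundus). Per the study's methods, the resistant line is kept in a low concentration of doxorubicin, a drug that control and treated cells may therefore share, and the CYT dose and treatment time of these libraries are not given in the sources used here. All libraries came from a single line, and the labels do not say whether replicates were separate cultures, so p-values measure only the spread between these samples, which may be technical.

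Metallothioneins are very small proteins packed with cysteines, through which they bind zinc, copper and cadmium, buffer free zinc and take up reactive oxygen species. MT2A and the MT1 genes lie side by side on chromosome 16 and are the classical targets of MTF1, a zinc-sensing transcription factor that binds metal response elements in promoters when free zinc is high. SLC30A1 (ZnT1) exports zinc across the plasma membrane and is another known target of MTF1, so in textbook terms zinc excess raises the metallothioneins and SLC30A1 together, while glucocorticoids raise MT2A by a separate route.

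The coding sequences of the 3 most abundant metallothioneins in these cells are shown because MT2A and MT1E fell after CYT and MT1X did not, although their sequences are close. Each is 186 bases long, 5′ to 3′ from start to stop codon in GENCODE release 29 (GRCh38), with the 20 cysteine codons in capitals.
MT2A: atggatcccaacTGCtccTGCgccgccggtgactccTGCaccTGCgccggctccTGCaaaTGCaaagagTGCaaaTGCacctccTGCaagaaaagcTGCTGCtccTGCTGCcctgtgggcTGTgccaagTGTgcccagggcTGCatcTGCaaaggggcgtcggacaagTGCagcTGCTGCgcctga
MT1E: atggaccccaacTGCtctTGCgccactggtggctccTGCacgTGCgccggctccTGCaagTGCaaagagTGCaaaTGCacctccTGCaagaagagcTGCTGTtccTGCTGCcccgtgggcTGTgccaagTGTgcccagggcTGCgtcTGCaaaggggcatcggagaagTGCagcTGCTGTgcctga
MT1X: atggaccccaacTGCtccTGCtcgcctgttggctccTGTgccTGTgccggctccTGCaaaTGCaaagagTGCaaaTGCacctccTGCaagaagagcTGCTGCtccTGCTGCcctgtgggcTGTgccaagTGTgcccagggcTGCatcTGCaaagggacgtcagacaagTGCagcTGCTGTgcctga
Cysteine took 20 of the 61 codons, or 32.8%, in each. Base identity was 92.5% between MT1E and MT2A, 93.5% between MT1X and MT2A and 90.9% between MT1E and MT1X. Over all 6 metallothioneins considered here it ran from 88.7% (MT1F with MT1X) to 95.2% (MT1G with MT2A). Such likeness could let short reads match several genes, so stretches shared by their whole transcripts were counted. No window of 100 bases in any member was found in another metallothionein gene or pseudogene, and the share of 50-base windows that was found there ran from 1.22% in MT1F to 16.5% in MT1G. How the authors' counting treated reads with several matches is not given in the sources used here, so the low counts of MT1G are the most uncertain.

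Promoters are shown for MT2A, MT1X and SLC30A1 because MTF1 acts on such sequences. RefSeq promoter sequences (GRCh38.p14) were matched for 4 of the 8 members, these 3 and MTF1. Each line is the 250 bases before the RefSeq start, 5′ to 3′ on the gene's strand, with matches to the core of the metal response element in capitals. The core was searched as TGCACNC and TGCGCNC on both strands, and no 2 matches overlapped.
MT2A (chr16:56608334-56608583, plus strand): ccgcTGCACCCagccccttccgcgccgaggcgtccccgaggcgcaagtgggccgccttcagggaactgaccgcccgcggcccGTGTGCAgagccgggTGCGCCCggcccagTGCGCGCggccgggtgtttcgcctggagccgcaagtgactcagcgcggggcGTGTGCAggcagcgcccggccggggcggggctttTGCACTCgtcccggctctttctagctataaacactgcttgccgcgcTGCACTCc
MT1X (chr16:56682220-56682469, plus strand): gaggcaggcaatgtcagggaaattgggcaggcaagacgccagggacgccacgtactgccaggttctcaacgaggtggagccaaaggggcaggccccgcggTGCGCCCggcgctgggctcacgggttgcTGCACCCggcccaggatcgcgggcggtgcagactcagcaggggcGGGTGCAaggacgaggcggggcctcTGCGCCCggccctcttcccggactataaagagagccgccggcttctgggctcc
SLC30A1 (chr1:211579162-211579411, minus strand): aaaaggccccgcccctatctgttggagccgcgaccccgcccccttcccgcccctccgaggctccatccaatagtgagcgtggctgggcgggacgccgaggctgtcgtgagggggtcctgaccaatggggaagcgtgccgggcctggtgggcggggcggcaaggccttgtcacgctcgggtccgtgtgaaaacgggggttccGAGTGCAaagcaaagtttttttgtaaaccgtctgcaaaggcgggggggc
The MT2A window held 7 matches, the MT1X window 4, the SLC30A1 window 1 and the MTF1 window 0. Of 35116 promoters of this length, 24.8% held at least 1 match, 0.37% at least 4 and 0.12% at least 5. The deposited MT2A locus starts upstream of the RefSeq start, so the MT2A window lies inside it. The MT1X window runs to base 56682469, past the deposited start at base 56682424. The SLC30A1 window stops at base 211579162, upstream of the deposited 5′ end at base 211578742, and the bases between were not searched. These are matches of letters, and no binding was measured.

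The 6 libraries held from 13056270 to 17770102 counts. The raw counts were tested with edgeR's quasi-likelihood test over 15572 genes that passed a filter on low counts, and a gene was called when its adjusted p was under 0.05 and its absolute log2 fold change over 1. CPM below are counts scaled to a common library size by the TMM method, and a log2 fold change is CYT minus control. Over all genes log2 CPM correlated at 0.953 to 0.971 between control libraries and at 0.97 between CYT replicates 1 and 3. CYT replicate 2 stood apart, with 0.904 and 0.905 against the other CYT libraries, so fits were also made without it, and their values stand beside the members or with the groups of genes. The mesenchymal marker VIM was abundant, as is usual for MDA-MB-231, but fell after CYT (2459 ± 253 to 996 ± 109 CPM), and the 6 markers of that line summed to 4888 to 6426 CPM in control and 3022 to 3799 CPM in CYT libraries. The defining luminal markers ESR1 and PGR had at most 4 counts in any library, although the summed luminal list stood at 214 to 424 CPM in control and 25.1 to 50.3 CPM in CYT libraries. KRT19 made up 417, 201 and 244 CPM of that sum in control and 38.5, 10.5 and 30.0 CPM in CYT replicates 1 to 3. Basal markers summed to 0.799 to 1.49 CPM in control and 1.27 to 3.56 CPM in CYT libraries. Markers of blood, endothelial and fibroblast cells summed to 30.1 to 60.7 CPM in control and 9.48 to 22.7 CPM in CYT libraries. Of these 7 markers COL1A1 (15.0 CPM), CD68 (12.9 CPM) and PDGFRB (11.1 CPM) had the highest control means, and only CD3E was at 0 in all libraries. COL1A1 and PDGFRB were called lower after CYT (log2 fold change -2.16 and -2.54, adjusted p = 0.00264 and 0.0129 by edgeR). What these markers have to do with the metal genes was not tested.

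Of the 8 members, 6 passed the filter. MT1E, MT2A and MT1F fell after CYT, MTF1 and SLC30A1 rose, and MT1X was not called. MT1G was counted only in CYT libraries and MT1M in none. Among all genes tested 12.2% were called lower, 15.2% higher and 27.4% in either direction. Since 46.1% of all genes tested did not overlap between the 3 control and 3 CYT libraries, a lack of overlap is common here. An exact two-sided permutation test of 3 against 3 libraries cannot give a p below 0.1, and it gave 0.1 for each of the 5 genes called.

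**Figure D1:**
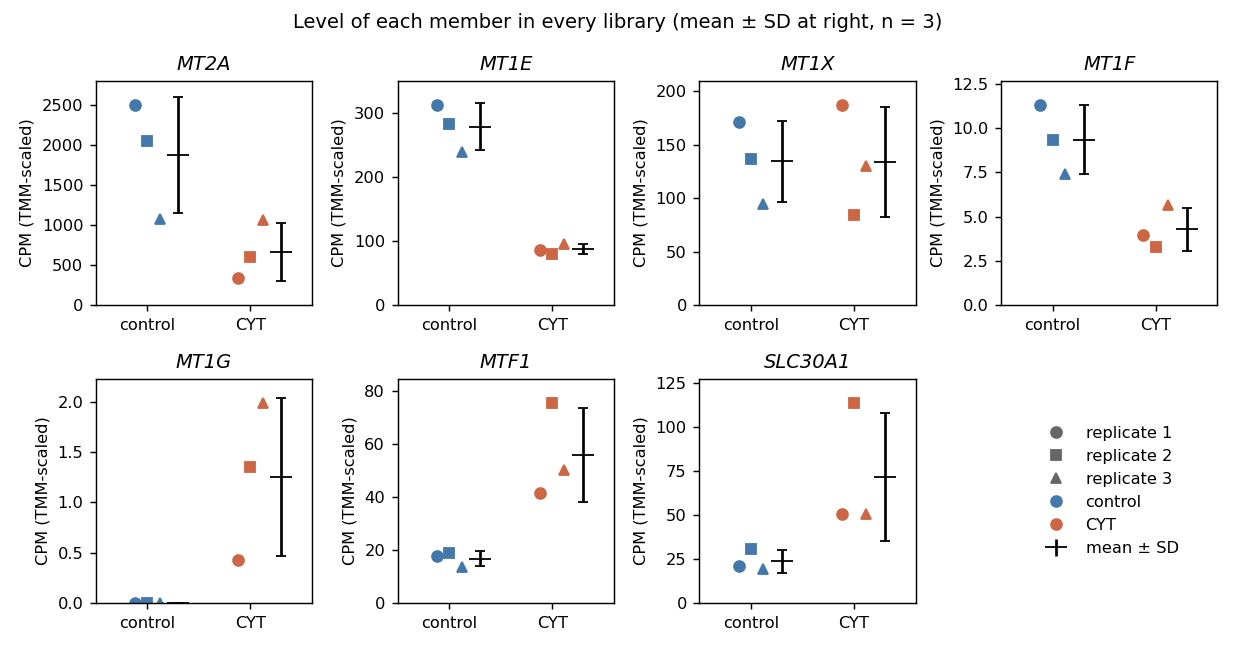
CPM (TMM-scaled) of the 7 members with any count in each of the 6 libraries, with control in blue, CYT in orange and the replicate given by the marker's shape. Horizontal bars show the mean with its SD (n = 3). MT1E separated the groups widely, MT2A nearly touched between control replicate 3 (1074 CPM) and CYT replicate 3 (1056 CPM), MT1X overlapped, and CYT replicate 2 was the highest library for MTF1 and SLC30A1.

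MT2A (ENSG00000125148, chr16:56608199-56609497) is the main metallothionein of most human tissues and was the most abundant member. Its counts were 40248, 38556 and 14942 in control replicates 1 to 3, or 2495, 2053 and 1074 CPM. CYT replicates 1 to 3 held 4835, 8498 and 13285 counts, or 341, 605 and 1056 CPM. The groups did not overlap, with CYT the lower, but the lowest control and the highest CYT library, both replicate 3, nearly touched. The mean went from 1874 ± 727 to 667 ± 361 CPM (SD, n = 3 each), 2.81-fold lower, with a log2 fold change of -1.49 (SE 0.45, 95% interval -2.51 to -0.47, adjusted p = 0.0352 by edgeR). The call rested on single libraries. Its adjusted p was 0.107 without control replicate 1 and 0.0706 without control replicate 2 (log2 fold change -1.25 and -1.43). It was 0.0959 without CYT replicate 1 and 0.055 without CYT replicate 2 (log2 fold change -1.18 and -1.43). In these bulk libraries a lower level per cell and fewer expressing cells cannot be told apart.

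MT1E (ENSG00000169715, chr16:56625475-56627112) codes for another metal-binding isoform and fell with the smallest adjusted p among the metallothioneins. Control replicates 1 to 3 had 5056, 5339 and 3345 counts, or 313, 284 and 240 CPM. CYT replicates 1 to 3 had 1214, 1135 and 1214 counts, or 85.6, 80.8 and 96.5 CPM. The CYT libraries thus lay close together and well below the lowest control library. The mean fell from 279 ± 36.7 to 87.6 ± 8.03 CPM, 3.19-fold lower, with a log2 fold change of -1.67 (SE 0.27, 95% interval -2.29 to -1.06, adjusted p = 0.00249 by edgeR). MT1E was called in 18 of 18 other ways of processing the data, and without CYT replicate 2 its log2 fold change was -1.62 (adjusted p = 0.00199).

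MT1F (ENSG00000198417, chr16:56657694-56660698) was far less abundant, with 183, 175 and 103 counts in control and 56, 46 and 71 counts in CYT replicates 1 to 3. In CPM these were 11.3, 9.32 and 7.41 against 3.95, 3.27 and 5.64, and the groups did not overlap. The log2 fold change was -1.13 (SE 0.37, 95% interval -1.95 to -0.30, adjusted p = 0.0453 by edgeR), 2.18-fold lower. The call was lost when any library was left out, with adjusted p from 0.0559 to 0.139. Without CYT replicate 2 the log2 fold change was -0.97 (adjusted p = 0.0609 by edgeR).

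MT1X (ENSG00000187193, chr16:56682424-56684196), whose promoter window held 4 metal response element cores, did not move in a common direction. Its counts were 2758, 2581 and 1319 in control and 2648, 1190 and 1639 in CYT replicates 1 to 3, or 171, 137 and 94.8 against 187, 84.7 and 130 CPM. The highest single library was CYT replicate 1 and the lowest CYT replicate 2, so the groups overlapped fully. The log2 fold change was -0.0056 with a 95% interval from -0.82 to 0.81 (adjusted p = 0.993 by edgeR). That interval holds both a rise and a fall of that size. Without CYT replicate 2 the log2 fold change was 0.24 (adjusted p = 0.569 by edgeR).

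MT1G (ENSG00000125144, chr16:56666731-56668065) had 0 of 49178004 counts in the 3 control libraries and 6, 19 and 25 counts in CYT replicates 1 to 3. The pooled CYT level, 1.23 CPM, was 20.2-fold above a floor of 3 counts over the control group (0.061 CPM), or 18.5-fold without CYT replicate 2. These ratios allow for counting error in the control group only, and CYT replicate 1 alone was at 0.423 CPM. The gene did not pass the filter, and with no filter edgeR gave an adjusted p of 0.00105. MT1M (ENSG00000205364, chr16:56632233-56633986) had 0 counts in every library, which allows a level of up to 0.0334 CPM over all libraries. MT3, the metallothionein best known from brain, was listed in the same way as MT1G, with 0 counts in control and 5, 15 and 13 counts in CYT replicates 1 to 3 (adjusted p = 0.00374 by edgeR with no filter). Such a pattern was not rare: of 32060 genes with any count, 1079 (3.37%) had none in control and at least 1 in each CYT library, 421 of them (1.31%) with 20 or more counts in all. Of the 15 other metallothionein genes and pseudogenes that are listed, 10 had any count and 0 passed the filter in edgeR. The most abundant of them, the pseudogene MT2P1, had 54, 19 and 7 counts in control and 5, 1 and 3 in CYT libraries. MT1A, MT1B, MT1L and MT4 had no count in control and never more than 5 in a CYT library. The pseudogene MT1DP went the other way, with 3, 5 and 2 counts in control and 0 in each CYT library.

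Summed over the 6 metallothionein members, the level was 2991, 2484 and 1417 CPM in control and 618, 775 and 1290 CPM in CYT replicates 1 to 3. All CYT libraries were below all control libraries, with a ratio of 1.1 between the lowest control and the highest CYT library. The mean went from 2297 ± 804 to 894 ± 352 CPM, 2.57-fold lower, or -1.36 on the log2 scale and -1.27 without CYT replicate 2. Metallothionein RNA took 0.14% to 0.278% of all counts in control libraries and 0.0621% to 0.121% in CYT libraries.

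MT1X, with a mean of 134 CPM in both groups, took a larger part of the metallothionein RNA after CYT. MT1X took 5.71%, 5.53% and 6.69% of metallothionein counts in control and 30.2%, 10.9% and 10.1% in CYT replicates 1 to 3, with every CYT library above every control library. The MT2A share was 83.3%, 82.6% and 75.8% in control and 55.1%, 77.8% and 81.7% in CYT replicates 1 to 3. CYT replicate 1, which had the lowest MT2A and the highest MT1X, was thus the library with the most altered mix. Taken within each library, the log2 ratio of MT1E to MT1X was 0.87, 1.05 and 1.34 in control and -1.13, -0.07 and -0.43 in CYT replicates 1 to 3. It was lower by 1.63 in CYT libraries with no overlap (exact two-sided permutation p = 0.1, the smallest possible). The log2 ratio of MT2A to MT1X also did not overlap (3.50 to 3.90 in control, 0.87 to 3.02 in CYT, exact p = 0.1), while that of MT2A to MT1E overlapped (mean 2.67 and 2.78, exact p = 0.9).

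**Figure D2:**
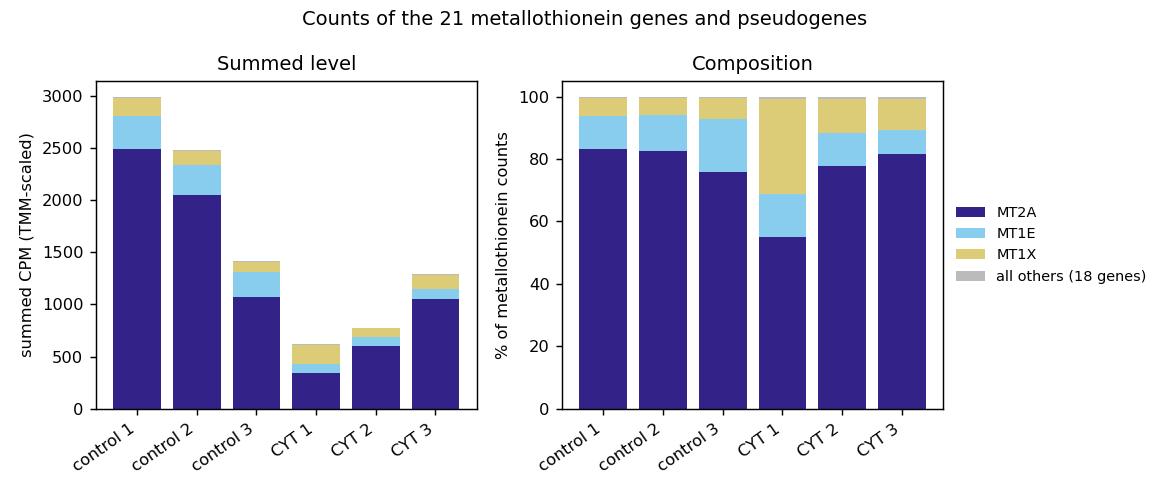
Metallothionein RNA in each library, as summed CPM (TMM-scaled) in the left panel and as the percent of metallothionein counts taken by each gene in the right panel, with libraries along the x axis. The summed level was lower in all CYT libraries, and the MT1X share lay above its control range of 5.53% to 6.69% in each of them, most in CYT replicate 1 (30.2%).

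MTF1 (ENSG00000188786, chr1:37809567-37859620), the zinc sensor itself, moved opposite to MT1E and MT2A. Its counts were 286, 354 and 186 in control replicates 1 to 3, or 17.7, 18.8 and 13.4 CPM. CYT replicates 1 to 3 had 588, 1063 and 630 counts, or 41.5, 75.7 and 50.1 CPM. Every CYT library stood above every control library, and CYT replicate 2 was the highest. The mean rose from 16.7 ± 2.89 to 55.7 ± 17.8 CPM, 3.34-fold, with a log2 fold change of 1.74 (SE 0.34, 95% interval 0.99 to 2.50, adjusted p = 0.00501 by edgeR). Without CYT replicate 2 it was 1.45 (adjusted p = 0.00366), and MTF1 was called in 17 of 18 other ways of processing.

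SLC30A1 (ENSG00000170385, chr1:211571568-211578742), the zinc exporter, rose with MTF1. Control replicates 1 to 3 had 336, 581 and 265 counts, or 20.8, 30.9 and 19.1 CPM. CYT replicates 1 to 3 had 716, 1604 and 641 counts, or 50.5, 114 and 50.9 CPM. CYT replicates 1 and 3 were nearly equal and CYT replicate 2 was the highest library. The log2 fold change was 1.61 (SE 0.41, 95% interval 0.70 to 2.51, adjusted p = 0.0164 by edgeR), 3.04-fold higher. It was 1.09 without CYT replicate 2 (adjusted p = 0.0169), and the call was lost without control replicate 1 (adjusted p = 0.0683) or control replicate 3 (adjusted p = 0.079). The log2 ratio of SLC30A1 to MTF1 within libraries overlapped between groups (mean 0.49 in control and 0.30 in CYT, exact permutation p = 0.5).

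**Figure D3:**
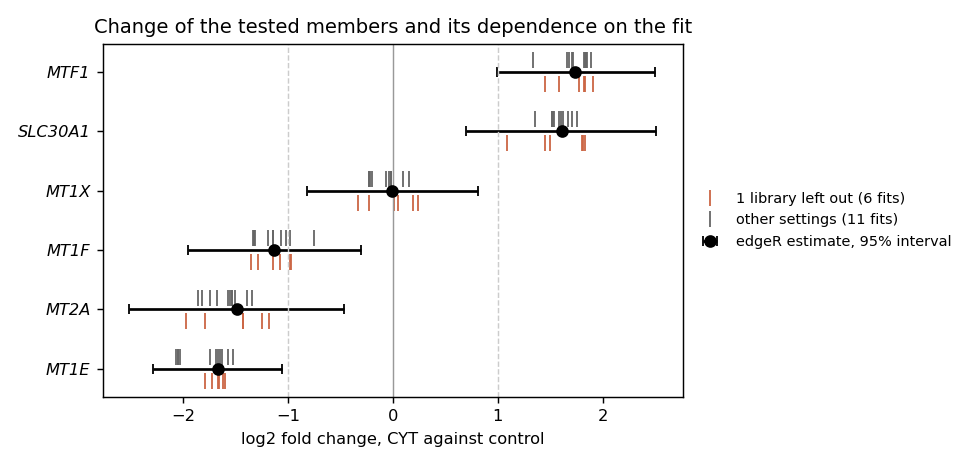
Log2 fold change (CYT minus control) of the 6 members tested, with 95% intervals from edgeR, with the values from 6 fits that left out a library as orange ticks and those from 11 other settings as grey ticks. MT1E and MTF1 lie farthest from 0 relative to their intervals, and MT1X is centred on 0.

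Levels of different genes were compared as CPM per kilobase of exonic length. In control libraries MT2A led with 1443 ± 560 CPM per kilobase, followed by MT1E (266 ± 34.9), MT1X (75.8 ± 21.5), MT1F (4.95 ± 1.04), SLC30A1 (4.31 ± 1.17) and MTF1 (2.08 ± 0.361). MT1F and SLC30A1 overlapped in this order, and MT1G and MT1M stood at 0. After CYT the order was MT2A (514 ± 278), MT1E (83.3 ± 7.63), MT1X (75.5 ± 28.8), SLC30A1 (13.1 ± 6.69), MTF1 (6.95 ± 2.22), MT1F (2.27 ± 0.646) and MT1G (1.67 ± 1.05). MT1E and MT1X now overlapped, as did SLC30A1 with MTF1 and MT1F with MT1G. The deposited FPKM would order the metallothioneins on a different scale. Of 10158 genes with 50 or more counts in each library, 92.1% followed a common rule, in which the length implied by count and FPKM equalled the sum of all distinct annotated exons, with overlapping exons counted repeatedly, within 1 base. For MT2A that length is 3073 bases against 1299 exonic bases, a ratio of 2.37, whereas for SLC30A1 both are 5474 bases. The FPKM of MT2A is therefore lowered relative to SLC30A1, while fold changes of a gene are not affected.

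Zinc transporters other than SLC30A1 were mixed in direction. Of 6 further SLC30 exporters that were tested, 1 rose and 0 fell by edgeR, where 15.2% and 12.2% of all genes did. Their median log2 fold change was 0.08 against 0.0064 over all genes. That median turned to -0.25 without CYT replicate 2, when it was -0.036 over all genes, so it has no stable direction. In the fit of all libraries 1 of the 6 had an unadjusted p under 0.05. The gene that rose was SLC30A4 (ZnT4), which moves zinc into endosomes and lysosomes, from 5.40 ± 1.44 to 18.2 ± 5.90 CPM (log2 fold change 1.75, SE 0.37, adjusted p = 0.00765 by edgeR). The most abundant, SLC30A7 (ZnT7), which loads the Golgi with zinc, stood at 59.3 ± 22.4 and 72.8 ± 31.3 CPM and was not called (0.29, adjusted p = 0.61).

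Among 11 zinc importers tested, all of the SLC39 family, 3 rose and 3 fell, where 15.2% and 12.2% of all genes did. Their median log2 fold change was -0.05. With the replicate number as a block 4 were called lower, the added gene being SLC39A10 (ZIP10), at -1.01 (adjusted p = 0.0109 by edgeR) against -0.93 (adjusted p = 0.159) without the block. SLC39A6 (ZIP6), a plasma membrane importer first described as an oestrogen-responsive gene of breast cancer, was at 32.2, 45.7 and 34.8 CPM in control and 105, 306 and 107 CPM in CYT replicates 1 to 3. Its log2 fold change was 2.20 (SE 0.46, adjusted p = 0.00702 by edgeR) and 1.48 without CYT replicate 2, the highest library (adjusted p = 0.00296). SLC39A8 (ZIP8), which carries zinc and manganese, and SLC39A9 (ZIP9) rose by 1.20 and 1.01 on the log2 scale (adjusted p = 0.0497 and 0.0465 by edgeR). Neither was called without CYT replicate 2 (0.64 and 0.75, adjusted p = 0.0808 and 0.0648), and leaving out a library cost each its call in 5 of 6 cases. SLC39A8 held only without CYT replicate 1 and SLC39A9 only without control replicate 2.

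The importers that fell were SLC39A14, SLC39A3 and SLC39A11. SLC39A14 (ZIP14), which also carries iron and manganese, was at 86.1, 107 and 77.2 CPM in control and 33.4, 32.9 and 30.5 CPM in CYT replicates 1 to 3. Its CYT libraries hardly differed from each other, and the log2 fold change was -1.48 (SE 0.28, adjusted p = 0.00483 by edgeR). SLC39A3 (ZIP3) fell from 81.1 ± 21.4 to 20.8 ± 13.7 CPM (-1.96, SE 0.56, adjusted p = 0.0263), with its lowest value, 5.62 CPM, in CYT replicate 2, and its call was lost without control replicate 1, control replicate 3 or CYT replicate 3. SLC39A11 (ZIP11) fell from 16.1 ± 1.54 to 5.82 ± 1.34 CPM (-1.47, adjusted p = 0.00951). The most abundant importer, SLC39A7 (ZIP7), which releases zinc from the endoplasmic reticulum and Golgi, was at 188 ± 56.9 and 252 ± 45.6 CPM and was not called (0.43, adjusted p = 0.338). Without CYT replicate 2, 1 importer was called higher and 4 lower, SLC39A10 among them (-1.56, adjusted p = 0.0104 by edgeR), and the importers' median turned to 0.26.

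Genes of copper, which metallothioneins also bind, were mostly not called. Of 12 copper handling genes tested, 1 rose, 1 fell and 10 were not called, where 27.4% of all genes were called. Their median log2 fold change was 0.22 (0.09 without CYT replicate 2). SCO2, an assembly factor of cytochrome c oxidase, is uncertain among them, because its counts fall under 2 identifiers. That used here had 1899, 1780 and 1250 counts in control and 1003, 0 and 882 in CYT replicates 1 to 3 (-1.10, SE 1.20), and the other had 87 to 182 counts in control and 114, 412 and 134 in CYT. Leaving SCO2 out, the same 1 rise and 1 fall stood among 11 genes with a median of 0.25. SLC31A1 (CTR1), the plasma membrane copper importer, was at 55.3, 66.4 and 52.3 CPM in control and 143, 250 and 169 CPM in CYT replicates 1 to 3. All CYT libraries were above all control libraries, and the log2 fold change was 1.69 (SE 0.32, adjusted p = 0.00427 by edgeR). SLC31A2 (CTR2), its paralog, was at 5.46, 4.58 and 4.96 CPM in control and 1.62, 1.28 and 0.715 CPM in CYT replicates 1 to 3, and fell (-2.04, SE 0.44, adjusted p = 0.0081). The most abundant copper gene, SOD1, the cytosolic copper and zinc superoxide dismutase, stood at 278 ± 32.9 and 478 ± 68.5 CPM and was not called (0.78, adjusted p = 0.0547).

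The other zinc and copper genes called in the fit of all libraries were also called without CYT replicate 2. Their log2 fold changes were then 1.44 for SLC30A4, -1.50 for SLC39A14, -1.51 for SLC39A3, -1.33 for SLC39A11 and -2.08 for SLC31A2, and SLC31A1 kept an adjusted p of 0.00283 by edgeR.

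**Figure D4:**
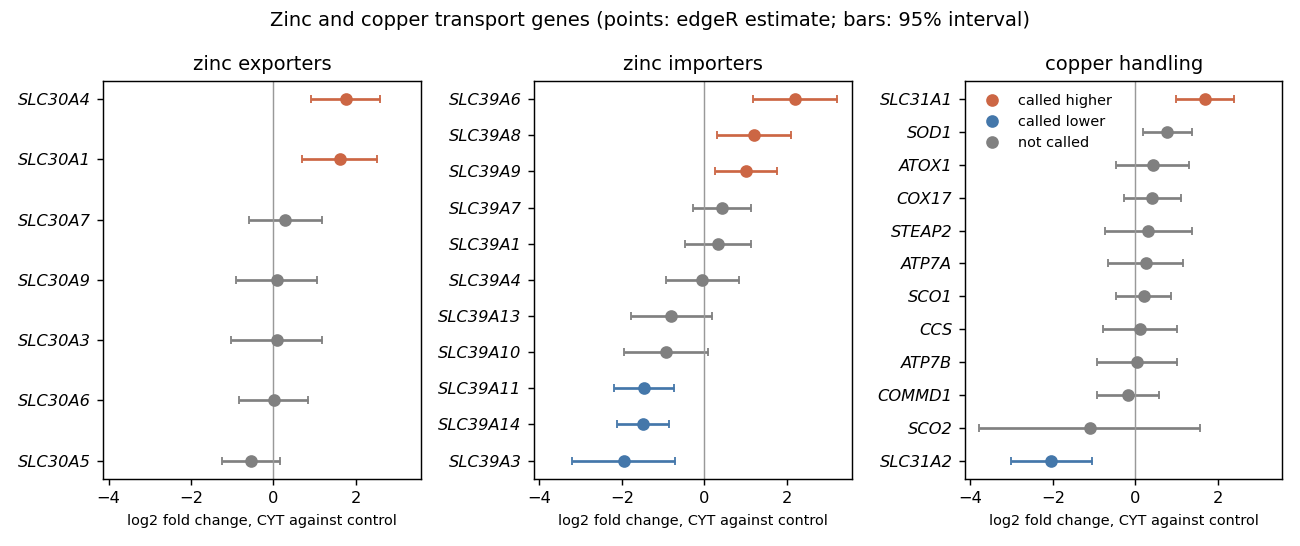
Log2 fold change (CYT minus control) with 95% intervals for the zinc exporters, zinc importers and copper handling genes tested, with genes called shown in colour, others in grey, and SCO2 drawn from the identifier with 0 counts in CYT replicate 2. Genes on both sides of 0 were called among the importers, led by SLC39A6 (2.20) above and SLC39A3 (-1.96) below.

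The 6 metallothionein members span 76.0 kb of chromosome 16, from MT2A to MT1X, and the metallothionein genes in all, MT4 and MT3 included, span 119.0 kb. Of 12 protein-coding genes within 500 kb on either side of the members, metallothionein genes left out, 10 were tested, of which 8 had a log2 fold change below 0 and 2 above. Of the 10, 1 rose and 2 fell, or 30.0% against 27.4% of all genes, with a median log2 fold change of -0.46 against 0.0064. OGFOD1, a prolyl hydroxylase of a ribosomal protein, rose from 79.0 ± 9.24 to 277 ± 56.1 CPM (1.81, adjusted p = 0.00232 by edgeR). HERPUD1, an endoplasmic reticulum stress gene, fell from 69.5 ± 10.7 to 22.1 ± 2.70 CPM (-1.65, adjusted p = 0.00341), and NLRC5, an activator of MHC class I genes, fell from 19.1 ± 4.24 to 5.44 ± 2.46 CPM (-1.81, adjusted p = 0.00909). Their log2 fold changes without CYT replicate 2 were 1.62 for OGFOD1, -1.74 for HERPUD1 and -1.59 for NLRC5, and all 3 were called.

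The genes whose log2 CPM ran most like the log2 summed metallothionein level over the 6 libraries were FNBP1, CYB561, TUBA1A, PIM1 and CLTCL1, with Pearson r of 0.978, 0.972, 0.970, 0.969 and 0.968 among 10556 genes ranked. The 6 points share their library depth and scaling, and the r values are a description of these libraries. None of these 5 genes was called, with log2 fold changes from -0.78 to -0.33.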

How the data were processed

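The libraries were 3 control and 3 CYT libraries of MDA-MB-231-DR cells, grouped by their sample titles. Per the study's methods the authors separated mRNA, sequenced it on a NovaSeq, discarded reads of low quality, adapters and rRNA, aligned clean reads with Hisat2 and computed FPKM with Stringtie. The submitters' processing notes name FastQC 0.12.1 and build hg38. The authors deposited raw counts and FPKM per gene in 1 table. The program that counted reads and its strand and multiple-match settings are not given in the sources used here.

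The counts went into edgeR 4.0.16 under R 4.3.3 (TMM scaling, filterByExpr with a minimum count of 10, quasi-likelihood test, Benjamini-Hochberg adjustment over 15572 genes). Genes were called when the adjusted p was under 0.05 and the log2 fold change beyond 1 in size. CPM had no pseudocount, and correlations used log2 CPM with a prior count of 2. Floors are 3 counts, intervals are 95%, and both cover counting error or the spread between these libraries only. Loci are those of GENCODE 29, equal to the deposited loci for all 8 members. SCO2 has 2 identifiers, of which the more abundant was used, and the copper genes were also summarised without it, a choice made after the data were seen.

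The members and lists were chosen with earlier results of these data known. The genes named are the members, the genes called in each list of related genes and the gene of each list with the highest mean CPM over the 6 libraries, the called protein-coding genes within 500 kb of the metallothionein members, and the 5 genes most correlated with the summed metallothioneins, taken among protein-coding genes with a mean of at least 5 CPM. Any list with more than 6 calls would have been limited to the 4 largest. MT1A, MT1B, MT1DP, MT1L, MT3, MT4, HMOX1, NCOA4, SCO2, SLC25A28, SLC39A10 and NR3C1 were added with their values in view. Alternatives tried were DESeq2 1.42.0, upper-quartile scaling, a fit with no filter, a filter at a mean of 5 CPM, limma 3.58.1 on log2(FPKM + 1) or on log2(FPKM + 0.1), the replicate number as a block, a length correction with and without that block, glmTreat, the adjusted p alone, and leaving out each library. A correction for exonic length was added after the data were seen. The edgeR fit, its forms with the block or the length correction, DESeq2 and limma on log2(FPKM + 1) were also run on simulated data. These were drawn with the dispersions of the edgeR fit itself. The other alternatives were not run on them.

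Deviations from the group mean, correlated over genes between the control and CYT library of the same number, gave r = 0.188 for number 1, 0.458 for number 2 and 0.124 for number 3. All exceeded 0.1, which was taken as pairing for the fits with a block. The pairing comes from the numbers in the labels and this check alone. Control 1 went more with CYT 3 (0.303) than with CYT 1, and control 3 more with CYT 1 (0.201) than with CYT 3. The cut therefore cannot show pairing for numbers 1 and 3.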

Additional observations from a re-analysis of the deposited data

How the results depend on the processing

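Leaving aside the rule of the adjusted p alone, which cannot remove a call, MT1E kept its direction and call under all 18 alternatives, MTF1 under 17, SLC30A1 under 15, MT2A under 12 and MT1F under 7, and none of these 5 genes changed sign. The 3 members called lower became 1 with the filter at a mean of 5 CPM, 1 with glmTreat and 1 to 2 when a library was left out. The 2 members called higher became 0 with glmTreat, where 2 had an unadjusted p under 0.05 (DESeq2 called 3, MT1G included), and 2 to 3 when a library was left out. Without control replicate 1 or control replicate 3 the 2 were MTF1 and MT1G, so only 1 of the 2 calls was kept. SLC30A1 lost its call, and MT1G, with 0 counts in control, passed the filter through its CYT libraries alone. The log2 fold change of MT1X turned to 0.15 with upper-quartile scaling and to 0.096 with the filter at 5 CPM, and ran from -0.33 to 0.24 when a library was left out. The cause was not tested. Upper-quartile scaling shifted the centre of all genes, a median log2 fold change of 0.0064, to 0.16, and the summed metallothioneins were then 2.31-fold lower in CYT libraries against 2.57-fold.

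Of all genes, 4274 were called in the fit reported, 2710 with the filter at 5 CPM, 2375 with limma on log2(FPKM + 1), 1777 with glmTreat and from 2891 to 4979 when a library was left out. In the 7 lists of related genes, the 10 genes called higher became 6 with limma on log2(FPKM + 1), 3 with glmTreat and 6 to 10 when a library was left out. The 8 called lower became 0 with glmTreat, where 7 had an unadjusted p under 0.05 (DESeq2 called 10), and 6 to 8 when a library was left out. Fewer genes pass glmTreat by its construction, since it tests against a log2 fold change of 1 instead of 0.

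With the replicate number as a block, 5011 genes were called, and the same 3 members were lower and the same 2 higher. In the lists, the block added SLC39A10 and HMOX1 as lower and NR3C1 as higher and removed no call. Counts of 25 or fewer per library, as for MT1G, MT1M and MT3, limit what can be said of these genes.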

Other observations

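Other lists hold genes that share inducers or cargo with the metallothioneins. Of 9 glucocorticoid response genes tested, 4 rose and 2 fell, where 15.2% and 12.2% of all genes did. Their median log2 fold change was 1.21 against 0.0064 over all genes. Without CYT replicate 2 the median was 0.77 against -0.036 over all genes, and 4 were called higher and 1 lower. CRISPLD2, a secreted protein induced by glucocorticoids, rose from 1.84 ± 0.833 to 54.1 ± 5.36 CPM (log2 fold change 4.87, adjusted p = 0.000326 by edgeR's quasi-likelihood test). KLF9, a transcription factor, rose from 4.27 ± 1.17 to 26.8 ± 10.7 CPM (2.65, adjusted p = 0.00195), and SGK1, a kinase, rose from 16.5 ± 6.86 to 48.1 ± 10.2 CPM (1.55, adjusted p = 0.0123). FKBP5, a co-chaperone of the glucocorticoid receptor, rose from 26.2 ± 4.67 to 71.2 ± 26.2 CPM (1.44, adjusted p = 0.013). SGK1 was not called without control replicate 1, nor FKBP5 without control replicate 1 or 3. ERRFI1, a feedback inhibitor of EGFR, fell from 247 ± 27.8 to 79.3 ± 32.8 CPM (-1.64, adjusted p = 0.0073). DUSP1, a phosphatase of MAP kinases, fell from 225 ± 45.8 to 105 ± 24.0 CPM (-1.10, adjusted p = 0.0255) and lost its call when any library but control replicate 3 was left out. Without CYT replicate 2 the log2 fold changes were 4.89 for CRISPLD2, 2.26 for KLF9, 1.37 for SGK1, 1.09 for FKBP5, -2.03 for ERRFI1 and -0.93 for DUSP1. The receptor gene NR3C1 was at 36.1 ± 4.62 CPM in control and at 49.7, 151 and 50.1 CPM in CYT replicates 1 to 3, and was not called (1.21, adjusted p = 0.0721, or 0.0319 with the replicate block). Without CYT replicate 2 its log2 fold change was 0.46 (adjusted p = 0.169). MT2A, known as a glucocorticoid target, was lower in the same libraries, a call lost in 4 of 6 fits that left out a library. A link between MT2A and these genes was not tested.

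Of 12 iron handling genes tested, 0 rose and 1 fell in edgeR, with 4 at an unadjusted p under 0.05. In 9 of 18 alternatives, DESeq2 included, 1 iron gene was called higher. It was SLC25A28, a mitochondrial iron importer, without control replicate 3 and otherwise NCOA4, the autophagy receptor of ferritin, which stood at 197 ± 41.5 and 408 ± 171 CPM and was not called in the fit reported (1.05, adjusted p = 0.0506). STEAP3, the endosomal ferrireductase, fell from 47.9 ± 8.40 to 10.4 ± 6.12 CPM (-2.21, adjusted p = 0.0105, or -1.79 without CYT replicate 2). FTL, the ferritin light chain and the most abundant iron gene, was at 2877 ± 149 and 4248 ± 1369 CPM with overlapping groups (0.56, adjusted p = 0.193). Of 8 heavy metal stress genes, HSPA6 rose from 7.11 ± 2.36 to 20.5 ± 3.76 CPM (1.53, adjusted p = 0.0121, or 1.67 without CYT replicate 2) and was lost without control replicate 1. DNAJB1, another heat shock gene, fell from 288 ± 18.6 to 111 ± 33.0 CPM (-1.37, adjusted p = 0.0103, or -1.15 without CYT replicate 2). HMOX1, which degrades haem, was at 12.5 ± 4.81 and 5.39 ± 1.73 CPM (-1.21, adjusted p = 0.0604), and with the replicate block its adjusted p was 0.0103, so the list then held 2 lower genes. HMOX1 was at -0.96 without CYT replicate 2 (adjusted p = 0.0899). HSPA1A, which had the highest CPM of the list when averaged over all 6 libraries but not in control, had 6940, 7 and 4430 counts in the control libraries and 4638, 108 and 4339 counts in the CYT libraries, in the order of their numbers, so both libraries numbered 2 stood far below the others. All 7 lists together had 31.0% of 58 tested genes called, near the 27.4% of all genes. The lists differed in this, as 3 of 9 glucocorticoid genes and 5 of 11 zinc importers were not called. Among iron and copper genes 11 of 12 and 10 of 12 were not called.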
